A study of Mus musculus with 18 samples.

Results

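The 10 genes described here mark hepatic stellate cells and their activation. *Lrat*, *Reln*, *Des* and *Hand2* stand for the identity of the cell, *Ngfr*, *Pdgfra* and *Pdgfrb* are receptors on its surface, and *Acta2*, *Tagln* and *Vim* are genes of the contractile and cytoskeletal programme of activated cells. The genes were chosen by name, with earlier results of these data known, and they are 10 of the 23352 gene symbols in the tables. Their levels were compared in liver poly(A) RNA of 18 male C57BL6 mice aged 20 weeks and fed a high-fat diet (HFD), 9 of them wild-type and 9 *Gpr180*KO, with 1 library per mouse. In *Gpr180*KO mice both alleles carried a CRISPR/Cas9 deletion of an internal exon in the whole body, hepatocytes and stellate cells alike, and the wild-type controls came from the same matings of heterozygous founders. Both groups shared the diet, sex and age, and mice on a normal diet were not analysed here.

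Stellate cells lie between hepatocytes and the sinusoidal endothelium. In a healthy liver they are quiescent and store most of the body's vitamin A as retinyl esters in lipid droplets. In injured or fatty liver they can lose these stores, multiply under platelet-derived growth factor, take on smooth muscle actin filaments and lay down collagen, a change known as activation. Several of the genes are shared with other cells, since *Acta2*, *Tagln* and *Des* are also expressed in vascular smooth muscle, *Vim* in most cells of mesenchymal or blood origin, and *Pdgfra* in portal fibroblasts. In RNA of whole liver, fewer cells of a type and less RNA per cell cannot be told apart.

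Values are FPKM, the reads of a gene divided by the length of its transcript and by the mapped reads of the library, and differences are log2(FPKM + 0.1) in *Gpr180*KO minus wild-type livers. Such a difference understates the change of a gene with low FPKM. Genes were compared with limma across the 10835 genes with a mean of at least 1 FPKM, and a gene was called at an adjusted p under 0.05. All 10 genes passed that minimum. Some genes are described below by livers that do not overlap with those of the other genotype. The share of all genes that separate in this way was not counted. Overlap was read from the values as deposited and not after scaling between libraries. *Gpr180* itself was at 4.46 to 9.24 FPKM in wild-type and 0.876 to 1.99 FPKM in *Gpr180*KO livers, without overlap, a log2 difference of -2.0 (adjusted p = 4.74e-06). Sequencing depth relative to the deepest library, estimated from lowly expressed genes, ran from 44.1 to 100%. The median difference of all genes tested was -0.13 and 76.9% of them were lower in the knockout. Median-of-ratios scaling between libraries brought these to -0.01 and 51%. Sample titles are of 2 kinds, which may mark batches and are called series 1 (4 wild-type and 4 *Gpr180*KO mice) and series 2 (5 of each).

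A pair of libraries stood apart from their groups. The wild-type liver W157 had the lowest wild-type sum of FPKM over the activation genes, 12.1 FPKM against a wild-type median of 35.0 and a maximum of 55.2, and over 17 matrix genes of activated stellate cells, 86.2 FPKM against a median of 281. It was also the lowest wild-type liver for the sums over the receptors, their ligands and partners, the further stellate cell markers, the contractile genes, and macrophage, portal fibroblast, mesothelial and lymphocyte markers. The *Gpr180*KO liver KO51 had the highest *Gpr180*KO sum of hepatocyte markers, 31656 FPKM against a median of 20118, and of adipocyte markers, 279 FPKM against a median of 17.8. Nearly all of that adipocyte sum was the gene *Cfd*, at 278 FPKM.

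Upstream sequences are shown for *Acta2*, *Lrat* and *Rarb*, because *Acta2* and *Lrat* varied separately among the livers and *Rarb* was the gene most like *Lrat*, as described further on. The mouse RefSeq promoters (GRCm38.p6, 300 bases each, 250 before and 50 after the start of the gene) held entries for 8 of the 10 genes, and *Tagln* and *Pdgfrb* were not matched. They were searched for the CArG box, which serum response factor binds in contractile genes (CC, then 6 bases that are each A or T, then GG, a pattern that reads alike on both strands), for the same box with 1 G or C allowed among the 6 central bases, and for the DR5 retinoic acid response element (a unit made of A or G, then G, then G or T, then TCA, repeated in the same direction after 5 bases, searched on both strands). The 250 bases before the start are printed 5′ to 3′ on the strand of the gene, with the matches in capitals. The *Acta2* sequence covers chr19:34255374-34255623 and the *Lrat* sequence chr3:82903975-82904224, both on the minus strand. The *Rarb* sequence covers chr14:16575477-16575726, also on the minus strand.
*Acta2*: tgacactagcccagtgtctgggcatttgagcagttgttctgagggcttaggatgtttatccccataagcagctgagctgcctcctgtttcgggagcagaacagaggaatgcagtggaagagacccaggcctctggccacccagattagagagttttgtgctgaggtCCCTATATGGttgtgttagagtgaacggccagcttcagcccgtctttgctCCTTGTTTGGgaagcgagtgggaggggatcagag
*Lrat*: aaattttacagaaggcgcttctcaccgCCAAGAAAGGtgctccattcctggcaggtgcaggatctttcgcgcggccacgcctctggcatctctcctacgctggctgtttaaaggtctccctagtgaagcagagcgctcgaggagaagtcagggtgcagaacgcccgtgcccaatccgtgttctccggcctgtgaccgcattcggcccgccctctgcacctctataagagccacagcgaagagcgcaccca
*Rarb*: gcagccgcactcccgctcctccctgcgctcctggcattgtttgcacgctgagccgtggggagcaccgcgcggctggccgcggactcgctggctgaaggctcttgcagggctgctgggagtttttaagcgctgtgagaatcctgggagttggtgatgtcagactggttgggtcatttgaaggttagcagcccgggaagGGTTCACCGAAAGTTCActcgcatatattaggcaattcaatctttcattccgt
No promoter of the 8 genes held an unaltered CArG box, which 1.63% of all 32851 promoters held. The box with 1 substitution had 2 matches in *Acta2*, with their first bases 84 and 34 bases before the start, and 1 match in *Lrat*, 223 bases before it. Of all promoters, 9.98% held at least 1 such match and 0.822% held 2 or more. The DR5 element was found in *Rarb*, 53 bases before the start, and in *Cyp26a1*, and 0.0974% of all promoters held it. *Lrat* and *Cyp26b1* had no DR5 match in this window. These matches are a description of the letters and not of binding.

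The levels of the 10 genes per transcript length spanned a wide range in wild-type livers. *Vim* was highest at 22.3 ± 7.62 FPKM (SD, n = 9), above 71.7% of the genes tested. *Tagln*, *Reln* and *Lrat* followed at 9.32, 8.91 and 5.48 FPKM, then *Pdgfrb* and *Acta2* at 3.36 and 2.98 FPKM. *Ngfr*, *Des*, *Hand2* and *Pdgfra* lay between 1.98 and 1.43 FPKM, and *Pdgfra* was above only 2.49% of the genes tested. The wild-type ranges of every pair of neighbours in this order overlapped.

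**Figure D1:**
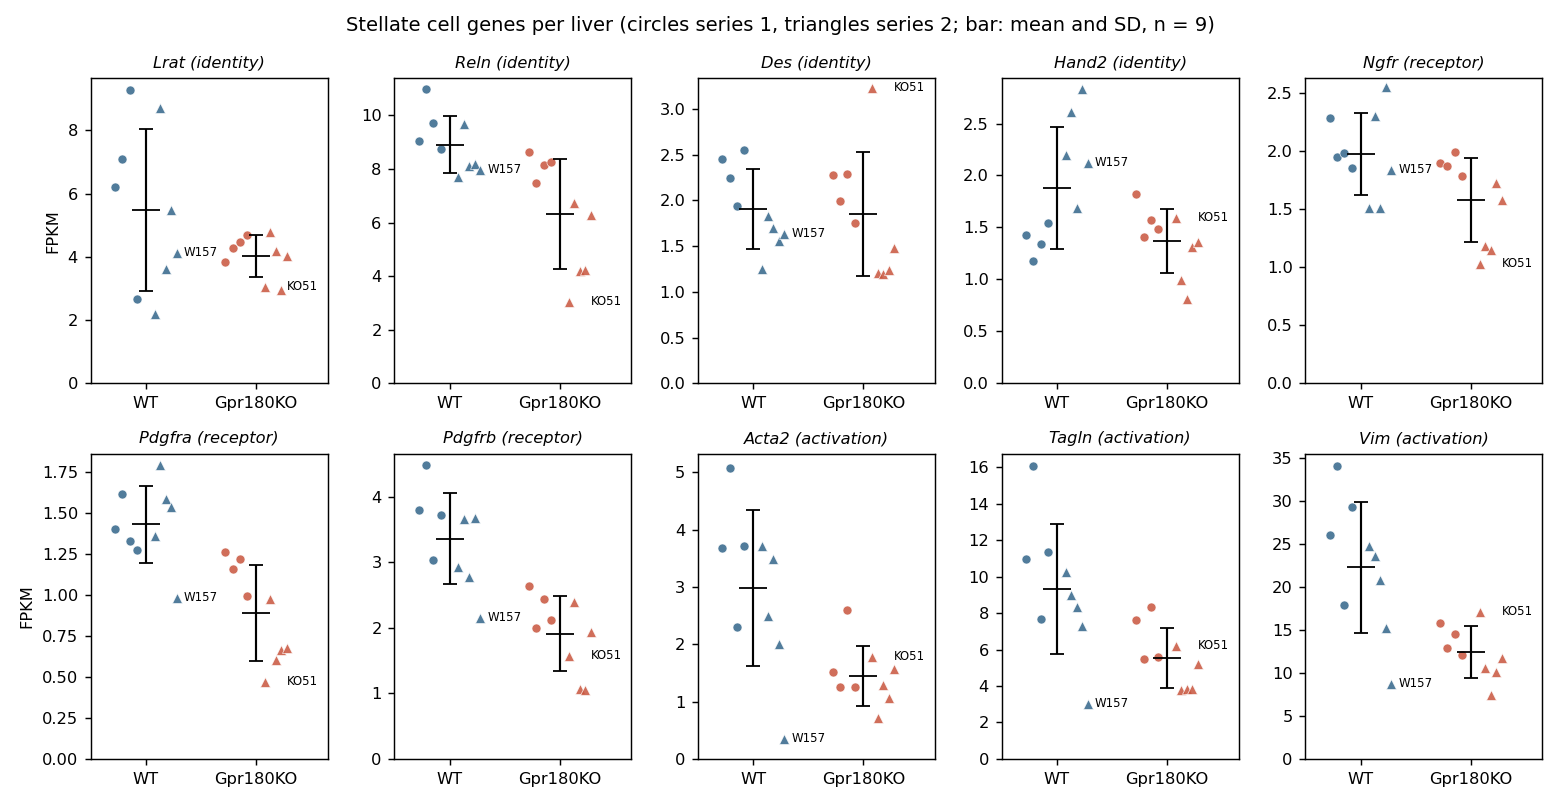
FPKM of each of the 10 genes in every liver, with wild-type livers in blue and *Gpr180*KO livers in red, circles for series 1, triangles for series 2, and a bar for the mean and SD (n = 9). For *Pdgfra* and *Pdgfrb* 8 of 9 wild-type livers sit above every *Gpr180*KO liver, and W157 is the lowest wild-type point for *Pdgfra*, *Pdgfrb*, *Acta2*, *Tagln* and *Vim*.

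In *Gpr180*KO livers all 10 genes had a lower mean than in wild-type livers, and 3 of the 10 were called lower (*Pdgfra*, *Pdgfrb* and *Vim*), where 4.28% of all genes tested were called lower. None was called higher by limma, also at an unadjusted p under 0.05, beside 0.452% of all genes called higher. The median difference of the 10 genes was -0.61, beside -0.13 for all genes. By group the median was -0.36 for the identity genes, -0.67 for the receptors and -0.78 for the activation genes. With median-of-ratios scaling the median of the 10 genes was -0.49, 9 of the 10 means were lower, and *Pdgfrb* alone was called, where 1.55% of all genes were called lower. Exact permutation of the genotype over all 48620 splits, two-sided, gave an unadjusted p under 0.05 for 8 of the 10 genes, and for 21.6% of all genes tested in the lower direction. Since the genes were chosen with earlier results of these data known, these counts describe the 10 genes and are no independent support.

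**Figure D2:**
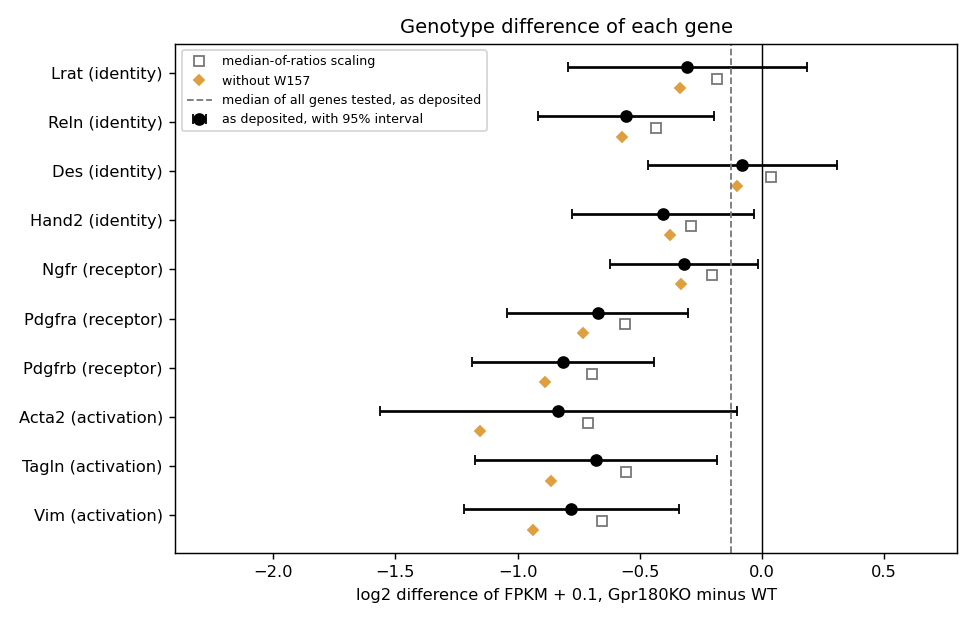
Difference between genotypes for each gene on the log2(FPKM + 0.1) scale, with black points and 95% intervals from limma for the values as deposited, open squares for median-of-ratios scaling and orange diamonds for the fit without W157. The dashed line marks the median of all genes tested, -0.13. The intervals of *Lrat* and *Des* cross 0, and the square of *Des* lies above 0.

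*Lrat* (chr3:82892582-82903974) encodes lecithin retinol acyltransferase, the enzyme that esterifies retinol for storage. In wild-type livers it ran from 2.19 FPKM in W131 through a median of 5.49 to 9.29 FPKM in W319. In *Gpr180*KO livers it ran from 2.93 through 4.17 to 4.79 FPKM. The *Gpr180*KO livers thus lay inside the wild-type range, which was the wider: the coefficient of variation was 46.6% in wild-type and 16.4% in *Gpr180*KO livers, a difference that was not tested. The means differed by -0.31 (95% interval -0.79 to 0.18, adjusted p = 0.446), and by -0.41 in series 1 and -0.22 in series 2.

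*Reln* (chr5:21884454-22344705) encodes the secreted glycoprotein reelin, which in liver marks stellate cells whether quiescent or activated. Wild-type livers ran from 7.71 through 8.76 to 11.0 FPKM and *Gpr180*KO livers from 3.03 in KO51 through 6.74 to 8.63 FPKM, with 6 of 9 *Gpr180*KO livers below every wild-type liver. The difference was -0.56 (SE 0.17, adjusted p = 0.0657), and -0.44 without KO51. The call was made when KO319 or KO321 was left out (adjusted p as low as 0.0412). Within series 1 the genotypes did not overlap (9.63 ± 0.987 against 8.13 ± 0.489 FPKM, n = 4 each, exact permutation p = 0.0286, the smallest that 4 against 4 allow). The margin there was narrow, with the lowest wild-type liver at 8.76 and the highest *Gpr180*KO liver at 8.63 FPKM as deposited. Within series 2 the genotypes did not overlap either, at 8.33 ± 0.776 against 4.90 ± 1.57 FPKM (n = 5 each, exact permutation p = 0.00794, the smallest for 5 against 5). With the series as a block the call was made (adjusted p = 0.015), in a fit that called 9.52% of all genes lower.

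*Des* (chr1:75360344-75367715) encodes desmin, the muscle intermediate filament by which rodent stellate cells are often stained. It differed least of the 10 genes. Wild-type livers ran from 1.25 through 1.83 to 2.55 FPKM and *Gpr180*KO livers from 1.2 through 1.75 to 3.23 FPKM, the last being KO51. The difference was -0.08 (95% interval -0.47 to 0.31, adjusted p = 0.812), -0.19 without KO51 and 0.04 with median-of-ratios scaling. Wild-type livers of series 1 had more *Des* than those of series 2 (2.30 against 1.59 FPKM, exact permutation p = 0.00794, unadjusted over 20 such comparisons).

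*Hand2* (chr8:57320983-57324517) encodes a basic helix-loop-helix transcription factor of mesenchymal cells. It ran from 1.17 through 1.69 to 2.83 FPKM in wild-type and from 0.811 through 1.41 to 1.82 FPKM in *Gpr180*KO livers, a difference of -0.40 (adjusted p = 0.187). The series pointed in opposite directions. In series 1 the *Gpr180*KO mean was the higher, 1.57 ± 0.177 against 1.37 ± 0.156 FPKM (n = 4 each, difference 0.18, exact permutation p = 0.143). In series 2 it was the lower, 1.21 ± 0.309 against 2.29 ± 0.447 FPKM, without overlap (n = 5 each, difference -0.88, exact permutation p = 0.00794). There the lowest wild-type liver was at 1.69 and the highest *Gpr180*KO liver at 1.59 FPKM as deposited. The interaction of genotype and series was -1.06 with an unadjusted p of 0.000787 from limma, but its adjusted p over all genes was 0.581. Wild-type livers of series 2 also had more *Hand2* than those of series 1 (2.29 against 1.37 FPKM, unadjusted exact permutation p = 0.0159). The gene shares 19.6% of its exon bases with the opposite-strand transcript *Hand2os1*, and whether reads were counted by strand is not given in the sources used here.

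Of the receptors 2 of 3 were called lower. *Pdgfrb*, on chromosome 18, encodes the receptor through which PDGF-B drives stellate cell proliferation. It ran from 2.15 in W157 through 3.67 to 4.48 FPKM in wild-type and from 1.05 through 1.99 to 2.64 FPKM in *Gpr180*KO livers, so that 8 wild-type livers were above every *Gpr180*KO liver. The mean fell from 3.36 ± 0.695 to 1.91 ± 0.578 FPKM (SD, n = 9), to 56.9% of wild-type. The difference was -0.82 (SE 0.18, adjusted p = 0.0175), -0.70 (adjusted p = 0.0283) with median-of-ratios scaling, -0.68 in series 1 and -0.92 in series 2. It stayed called whichever single liver was left out (adjusted p up to 0.0433).

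*Pdgfra* (chr5:75152291-75198204) encodes the related receptor for PDGF-A and PDGF-C. It ran from 0.981 in W157 through 1.40 to 1.79 FPKM in wild-type and from 0.472 in KO51 through 0.979 to 1.27 FPKM in *Gpr180*KO livers, again with 8 wild-type livers above every *Gpr180*KO liver. The difference was -0.67 (SE 0.18, adjusted p = 0.0373). With median-of-ratios scaling it was -0.56 and no longer called (adjusted p = 0.0541), and in the 18 fits that each left out 1 liver the call was lost in 11 (without W317, W318, W320, W131, W133, W134, W156, KO52, KO53, KO54 or KO56), with adjusted p up to 0.0843. The genotypes did not overlap within either series, where they differed by -0.26 (series 1) and -1.0 (series 2), with an interaction of -0.74 (unadjusted p = 0.0151, adjusted p = 0.589 from limma).

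*Ngfr* (chr11:95568821-95587698) encodes the p75 neurotrophin receptor, which stellate cells carry. Wild-type livers ran from 1.51 through 1.95 to 2.55 FPKM and *Gpr180*KO livers from 1.03 in KO51 through 1.73 to 1.99 FPKM. The groups overlapped over most of their range, and the difference of -0.32 was not called (95% interval -0.62 to -0.02, adjusted p = 0.198).

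For all 3 activation genes W157 was the lowest and W318 the highest wild-type liver. *Vim* (chr2:13574311-13582826) encodes vimentin, the intermediate filament of mesenchymal cells. It ran from 8.74 through 23.5 to 34.1 FPKM in wild-type and from 7.40 through 12.1 to 17.0 FPKM in *Gpr180*KO livers. Of the wild-type livers 7 were above every *Gpr180*KO liver. The mean fell from 22.3 ± 7.62 to 12.5 ± 3.01 FPKM (SD, n = 9), a difference of -0.78 (SE 0.21, adjusted p = 0.0393), or -0.66 (adjusted p = 0.0814) with median-of-ratios scaling and -0.94 (adjusted p = 0.00353) without W157. The call was lost in 12 of the 18 fits without 1 liver (W317, W318, W320, W131, W133, W134, KO320, KO322, KO52, KO53, KO54 or KO56), with adjusted p up to 0.0843.

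*Acta2* (chr19:34240336-34255373) encodes alpha smooth muscle actin, the protein most used to stain activated stellate cells. Wild-type livers ran from 0.346 in W157 through 3.49 to 5.08 FPKM and *Gpr180*KO livers from 0.718 through 1.29 to 2.59 FPKM. The mean in *Gpr180*KO livers came to 48.6% of that in wild-type livers, the lowest ratio of the 10 genes, yet the difference of -0.83 was not called (SE 0.35, adjusted p = 0.169). Without W157 it was -1.15 (adjusted p = 0.00382).

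*Tagln* (chr9:45929628-45936058) encodes transgelin, an actin-binding protein of smooth muscle also known as SM22. It ran from 3.0 in W157 through 8.99 to 16.1 FPKM in wild-type and from 3.78 through 5.51 to 8.32 FPKM in *Gpr180*KO livers. The difference was -0.68 (SE 0.24, adjusted p = 0.0987), and -0.86 (adjusted p = 0.00697) without W157. *Tagln* shares 62.4% of its exon bases with the antisense transcript *Gm48529* and 108 bases with the opposite-strand gene *Pcsk7*, whose reads cannot be told apart from its own without strand. *Pcsk7* differed by -0.10 (adjusted p = 0.517), or 0.02 with median-of-ratios scaling. Without W157 all 3 activation genes and both PDGF receptors were called, 5 of the 10 genes, where 7.77% of all genes were called lower. W157 was the lowest wild-type liver for each of these 5 genes. Leaving it out therefore raises their wild-type means by construction, and the calls of that fit are no independent support. With the series as a block 5 genes were called as well, with *Reln* in place of *Acta2*. In series 1 alone *Pdgfrb*, *Acta2* and *Vim* were called, where 5.29% of all genes were called lower. In series 2 alone limma called none of the 10, and 0.00932% of all genes were called lower. In that fit 6 of the 10 had an unadjusted p under 0.05, as did 15.9% of all genes in the lower direction.

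The activation genes were then set against the identity genes within each liver, as the mean log2(FPKM + 0.1) of *Acta2*, *Tagln* and *Vim* and that of *Lrat*, *Reln*, *Des* and *Hand2*. The difference between the genotypes was -0.76 for the activation genes and -0.34 for the identity genes, and each of the 9 *Gpr180*KO livers lay under the wild-type mean of either score. Activation minus identity was 1.12 ± 0.78 in wild-type livers, from -0.55 in W157 to 1.86 in W131. In *Gpr180*KO livers it was 0.69 ± 0.25, from 0.30 in KO52 to 1.10 in KO51. The balance thus differed by -0.43, by -0.64 without W157 and by -0.48 without KO51. Within series 1 it differed by -0.77, with 4 of 4 *Gpr180*KO livers under the mean of the controls, and within series 2 by -0.15, with 4 of 5 under it. These are descriptions with no test, since the genes were chosen with results of these data known.

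**Figure D3:**
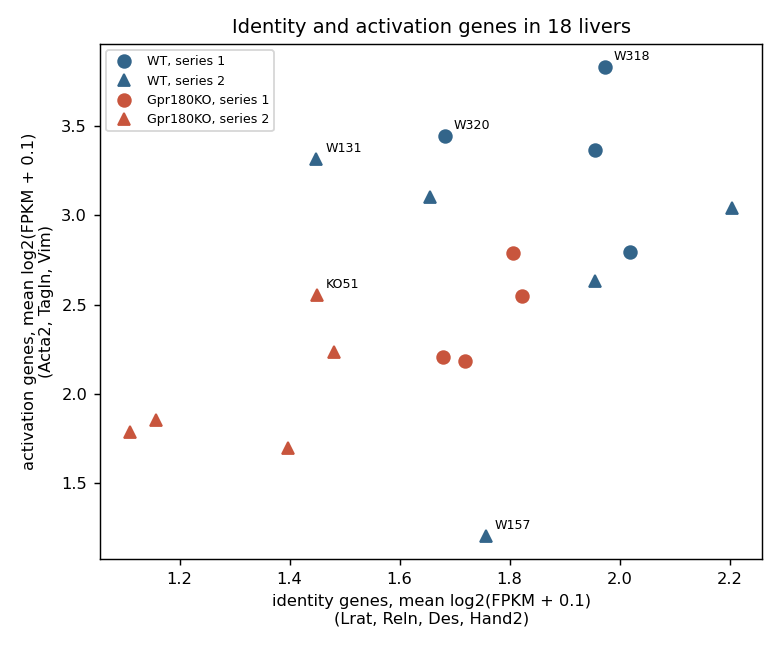
Mean log2(FPKM + 0.1) of the 4 identity genes (horizontal) against that of the 3 activation genes (vertical) in each of the 18 livers, with wild-type livers in blue, *Gpr180*KO livers in red, circles for series 1 and triangles for series 2. The *Gpr180*KO livers lie between 1.69 and 2.79 on the vertical axis. Apart from W156 at 2.63 and W157 at 1.2, the wild-type livers lie above all of them.

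Among livers of the same genotype the 10 genes did not vary as a unit. Correlations were computed for 7 pairs over the 18 livers after removing the genotype means, with a permutation test within genotype and Benjamini-Hochberg adjustment over the pairs. *Acta2* and *Tagln* moved together (r = 0.92, adjusted permutation p = 0.00014, rho = 0.85, adjusted p = 0.00035), and r was 0.81 without W318 and W157, 0.92 in series 1 and 0.96 in series 2. *Pdgfra* and *Pdgfrb* did so too (r = 0.74, adjusted permutation p = 0.00292, rho = 0.75, adjusted p = 0.00385), with r = 0.74 without W157 and KO51, 0.71 in series 1 and 0.66 in series 2. *Lrat* and *Reln* had a pooled r of 0.43 (adjusted permutation p = 0.00238, rho = 0.55, adjusted p = 0.00385, r = 0.51 without W320 and W131, 0.49 and 0.50 within the series). With median-of-ratios scaling r was 0.34 (adjusted permutation p = 0.0137) and rho 0.41 (adjusted p = 0.0606). *Lrat* varied mostly in wild-type livers (coefficient of variation 46.6 against 16.4%) and *Reln* mostly in *Gpr180*KO livers (32.4 against 11.9%). Pooling such genes can lower r, and r within each genotype was not computed. *Lrat* showed no detectable relation to *Des* (r = 0.10, rho = 0.15) or *Acta2* (r = -0.04, rho = -0.13), with adjusted permutation p from 0.639 to 0.928. Within the series r with *Des* was -0.64 in series 1 and 0.05 in series 2, and r with *Acta2* was -0.21 and -0.20.

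The other pairs set the activation genes beside genes of other cells. *Acta2* and *Myh11*, the myosin heavy chain of smooth muscle, had r = 0.63 (adjusted permutation p = 0.00482) and rho = 0.51 (adjusted p = 0.0505), which fell to r = 0.49 without W318 and W157, and *Myh11* itself was at a mean of only 0.518 FPKM in wild-type livers and 0.430 FPKM in *Gpr180*KO livers. *Vim* and *Cd68*, a lysosomal protein of macrophages, had r = 0.82 (adjusted permutation p = 0.000385) and rho = 0.72 (adjusted p = 0.00385), with r = 0.69 without W157 and KO53, 0.84 in series 1 and 0.79 in series 2. *Cd68* was also called lower in *Gpr180*KO livers, at 19.3 ± 4.55 against 11.9 ± 2.84 FPKM (SD, n = 9, difference -0.69, adjusted p = 0.0257 from limma). The part of macrophages in the *Vim* difference was not tested. All pairs share libraries and their depth.

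The genes most like *Lrat*, *Acta2* and *Vim* were ranked among all genes tested by Pearson r over the 18 livers after removing the means of genotype and series. For *Lrat* they were *Rarb* (r = 0.86), the retinoic acid receptor beta gene whose upstream sequence with its DR5 match is printed above, *Cyp26b1* (r = 0.82), an enzyme that breaks down retinoic acid, and *Sec61a2* (r = 0.77), a subunit of the protein channel of the endoplasmic reticulum. *Cyp26a1*, the other DR5 gene, stood at rank 225 (r = 0.51) and *Reln* at rank 394. The wild-type livers spanned the wider range of both leading genes. *Cyp26b1* ran from 0.283 FPKM in W131 to 9.73 FPKM in W319, the same livers that were lowest and highest for *Lrat*, and *Rarb* from 0.888 FPKM in W320 to 4.31 FPKM in W319. Neither was called between the genotypes, *Rarb* at -0.45 (adjusted p = 0.28) and *Cyp26b1* at 0.22 (adjusted p = 0.824).

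For *Acta2* the most alike genes were *Tagln* (r = 0.94), *Myo1f* (r = 0.90), an unconventional myosin of immune cells, and *Cd9* (r = 0.88), a tetraspanin of many cell types. W157 was the lowest and W318 the highest wild-type liver for each of these. *Vim* stood at rank 37 for *Acta2* (r = 0.81) and *Lrat* far down at rank 9028 (r = -0.19). For *Vim* they were *Maged2* (r = 0.97), *Col1a1* (r = 0.94), a chain of the main fibrillar collagen, and *Tagln2* (r = 0.93), a relative of transgelin, with *Tagln* at rank 4. *Col1a1* had a mean of 9.27 ± 4.90 FPKM in wild-type livers and 2.32 ± 1.54 FPKM in *Gpr180*KO livers (SD, n = 9), and the lowest wild-type liver was again W157 at 1.64 FPKM.

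**Figure D4:**
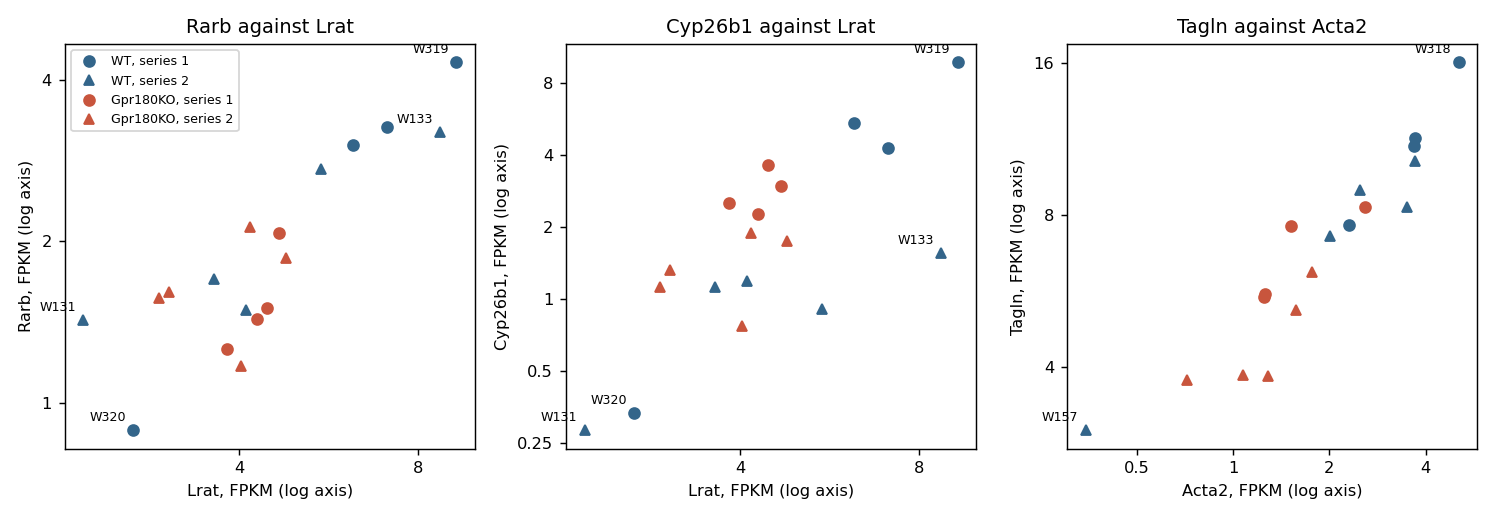
FPKM of *Rarb* and of *Cyp26b1* against *Lrat*, and of *Tagln* against *Acta2*, on log axes, in the 18 livers (blue wild-type, red *Gpr180*KO, circles series 1, triangles series 2). In the *Cyp26b1* panel W131 (0.283 FPKM) and W319 (9.73 FPKM) hold the ends of both axes, and in the *Tagln* panel W157 and W318 do.

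Other genes of these pathways were read from lists chosen with results of these data known. Their counts stand beside 4.28% of all genes called lower in the fit to all 18 livers and 1.55% with median-of-ratios scaling. Without W157 it was 7.77%, and without KO51 702 of 10867 genes. A lower mean was found for 76.9% of all genes in the fit to all 18 livers. For the other fits without 1 library the share of all genes is not given here. Of 16 further stellate cell markers tested, 4 were called lower and all 16 had a lower mean, with a median of -0.38. The 4 were *Dcn*, the proteoglycan decorin (144 ± 24.3 against 89.7 ± 12.6 FPKM, difference -0.68, adjusted p = 0.00631), *Ednrb*, an endothelin receptor (-0.70), *Cygb*, the stellate cell globin (-0.57), and *Adamtsl2* (-0.77). With median-of-ratios scaling *Dcn* and *Ednrb* were called. The count rose to 8 without KO51 and 6 without W157, and fell to 2 without W317, W318, W320, W133, W134, W156, KO320, KO322, KO52, KO53 or KO54. *Colec11* and *Ecm1*, also typical of quiescent stellate cells, differed by -0.12 and -0.13, about as much as the median gene, and *Colec11* by 0.0042 with median-of-ratios scaling.

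The matrix genes of activated stellate cells had the largest differences of all lists. Of 13 tested 10 were called lower and all 13 had a lower mean, with a median of -1.36, and with median-of-ratios scaling 9 were called and the median was -1.25. *Lum*, the collagen-binding lumican, fell from 8.39 ± 2.85 to 3.06 ± 0.994 FPKM (SD, n = 9, difference -1.41, adjusted p = 0.00631). *Postn*, the matricellular protein periostin, differed by -1.12 (adjusted p = 0.00631), *Spp1*, osteopontin, by -1.96 (adjusted p = 0.00701), and the fibrillar collagen gene *Col3a1* by -1.73 (adjusted p = 0.0132). Without W157 12 of the 13 were called, and without W133 6. Which cells the RNA of these genes came from, *Spp1* among them, was not tested.

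Of 6 ligands and partners of the receptors tested, 4 were called lower, with a median of -0.61. With median-of-ratios scaling the median was -0.49, and none was called by limma (4 at an unadjusted p under 0.05). The count rested on single libraries. It was 1 without KO51, KO319, KO320 or KO322, 2 without W319, W134 or KO56, and 0 without W317, W318, W320, W131, W133, W156, KO52, KO53 or KO54. *Pdgfa* and *Pdgfc*, ligands of the receptor encoded by *Pdgfra*, differed by -0.51 (adjusted p = 0.0489) and -0.71 (adjusted p = 0.0472). *Ntrk2*, a neurotrophin receptor kinase, differed by -1.5 (adjusted p = 0.047). *Pdgfb*, the main ligand of the receptor encoded by *Pdgfrb*, was under the minimum at a mean of 0.855 FPKM in wild-type livers and 0.536 FPKM in *Gpr180*KO livers.

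Of 11 genes of retinoid handling tested, 1 was called lower, *Rdh11*, a retinal reductase (43.3 ± 9.28 against 26.3 ± 3.86 FPKM, difference -0.69, adjusted p = 0.0146), and the median was -0.21, near that of all genes. Without W157, *Rdh10*, a retinol dehydrogenase, was called as well. Of 8 contractile genes of smooth muscle tested, 2 were called lower, *Tpm1*, a tropomyosin (-0.76, adjusted p = 0.0161), and *Smtn*, smoothelin (-0.52, adjusted p = 0.0373), with a median of -0.30. With median-of-ratios scaling *Smtn* was not called (-0.40, adjusted p = 0.106), and 1 of the 8 was called in 11 of the 18 fits that left out 1 liver. The other 8 genes of the list were under the minimum. Of these *Cnn1*, *Lmod1*, *Synpo2* and *Pln* had means from 0.0441 to 0.105 FPKM over both genotypes. *Actg2*, *Notch3* and *Myh11* had means from 0.106 to 0.518 FPKM, and *Myocd*, a coactivator that specifies smooth muscle, stayed under 0.1 FPKM in every liver. The actins of all cells, *Actb* and *Actg1*, which resemble *Acta2* in sequence, differed by -0.36 and -0.33, and none of the 3 genes tested in that list was called by limma (2 at an unadjusted p under 0.05). With the series as a block *Actb* and the lamin gene *Lmna* were called, and without W157 or without KO319 1 of the 3 was.

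**Figure D5:**
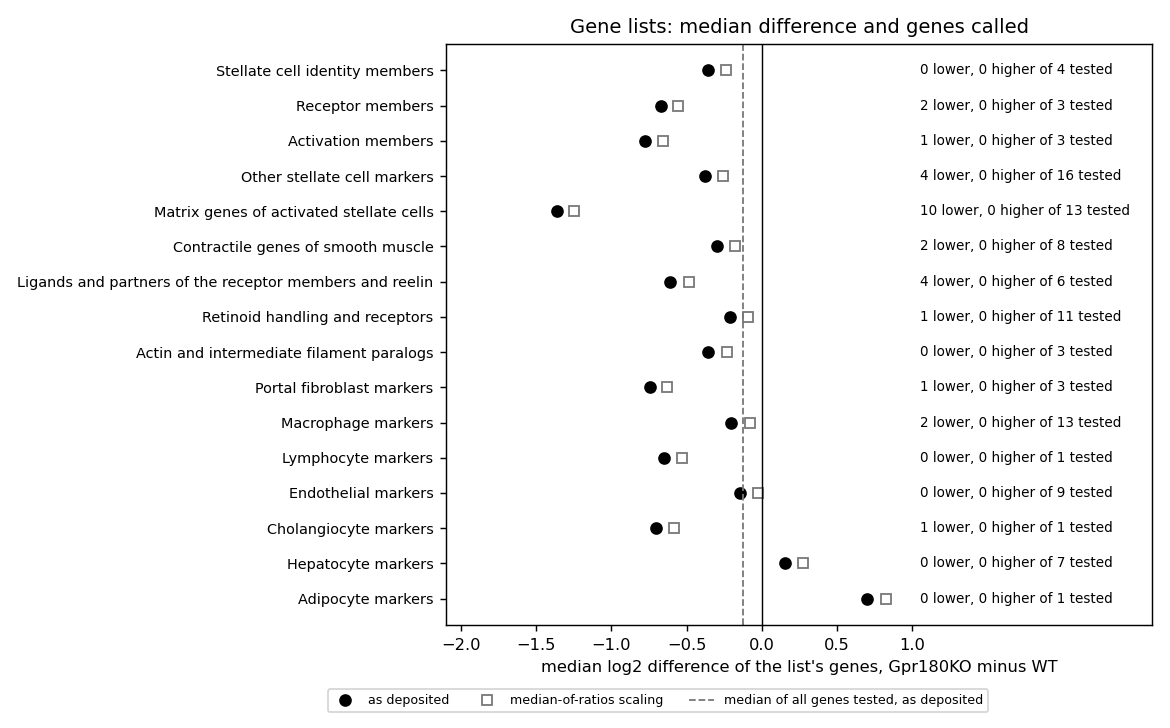
Median log2 difference of the genes tested in each list, *Gpr180*KO minus wild-type, as deposited (black points) and with median-of-ratios scaling (open squares), with the number called in each direction at the right. The dashed line marks the median of all genes tested, -0.13. The matrix genes lie lowest at -1.36, and hepatocyte and adipocyte markers lie above 0.

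Markers of other liver cells were measured in the same livers. Of 13 macrophage markers tested 2 were called lower, *Cd68* and *Ccr2*, a chemokine receptor of monocytes (2.67 ± 1.43 against 0.836 ± 0.387 FPKM, difference -1.43, adjusted p = 0.0279). Without W157 3 were called, without KO54 1, and without W317, W318, W133 or KO53 none by limma. The summed macrophage markers ran from 320.9 FPKM in W157 to 755 FPKM in wild-type and from 349 to 564 FPKM in *Gpr180*KO livers, which overlap. Of 3 portal fibroblast markers tested 1 was called lower, *Dpt*, dermatopontin (-1.07, adjusted p = 0.0161). Without W157 *Mfap4* was called too (-0.98, adjusted p = 0.0466, against -0.74 and 0.223 with it). The sums of all 9 markers ran from 5.30 in W157 to 19.1 FPKM in wild-type and from 4.26 to 9.46 FPKM in *Gpr180*KO livers. *Sox9*, the only cholangiocyte marker tested, was called lower (-0.70, adjusted p = 0.0454), but not with median-of-ratios scaling (-0.59, adjusted p = 0.121) or in 14 of the 18 fits without 1 liver. The summed cholangiocyte markers ran from 2.76 to 6.24 and from 1.44 to 3.50 FPKM. *Ptprc* (CD45), found on all leukocytes, was the only gene of the lymphocyte list at the minimum, and the other 9 were below it. It was not called (-0.65, adjusted p = 0.0979), but was without W157 (-0.79, adjusted p = 0.0196). The part of these cells in the stellate cell differences was not tested.

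None of the endothelial and hepatocyte markers passed the test in either scaling. None of 9 endothelial markers tested was called by limma (0 at an unadjusted p under 0.05), with a median of -0.15 (*Clec4g* -0.05, or 0.07 with median-of-ratios scaling, and *Fcgr2b* -0.15), and their sums overlapped, from 116 to 192 FPKM in wild-type and from 108 to 169 FPKM in *Gpr180*KO livers. Of 7 hepatocyte markers tested 0 were called by limma, and 0 had an unadjusted p under 0.05, with a median of 0.15 (*Apoa1* 0.21 and *Ttr* 0.02). The adipocyte marker *Cfd* was not called (0.70, adjusted p = 0.602, or 0.23 without KO51), and *Adipoq*, *Plin1* and *Lep* stayed under 0.1 FPKM in every liver. Skeletal muscle, Schwann cell and mesothelial markers had no gene at the minimum. *Ckm* and *Tnnt3* of muscle were listed at 0 throughout, and *Sox10*, the defining factor of Schwann cells, stayed under 0.1 FPKM. The mesothelial sums ran from 0.586 to 2.22 FPKM in wild-type and from 0.729 to 3.05 FPKM in *Gpr180*KO livers.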

How the data were processed

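Liver poly(A) RNA of 9 wild-type and 9 *Gpr180*KO mice was analysed, with 1 library per mouse. The authors prepared TruSeq libraries, ran Illumina's TopHat Alignment application on mm10 and deposited FPKM values from its output for 23847 entries per mouse. The annotation is not given in the sources used here, and the tables hold no counts. Entries sharing a symbol were summed, and the 24 genes with any of the 190 failed estimates, *Alb* among them, were left out.

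Genotypes were taken from the labels. The limma package (3.58.1, R 4.3.3) was used for log2(FPKM + 0.1), with lmFit and a trended eBayes, for genes with a mean of at least 1 FPKM, with Benjamini-Hochberg adjustment over all of them. Single genes were also tested by exact permutation (two-sided), and correlations with 100000 permutations (Python 3.11.15, numpy 2.4.6, scipy 1.17.1). The steps were tested on simulated data. Promoters came from RefSeq and exon overlaps from the GENCODE annotation of GRCm38.

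The 10 genes and the lists were chosen with earlier results of these data known. Beyond the 10 genes, up to 4 called genes of each list by lowest p were named, otherwise up to 2 with the highest FPKM, and the 3 genes most like *Lrat*, *Acta2* and *Vim*. A gene named by this rule is not reported here by itself. Other genes, such as *Colec11*, *Ecm1*, *Pdgfb* and *Cyp26a1*, were picked once values were known. Alternatives tried were a pseudocount of 1 or 0.01, a minimum of 0.1 or 5 FPKM or no minimum, 3 scalings, other variance models, weights per library, the series as a block or alone, and each library left out. Median-of-ratios scaling with W157 left out or with the series as a block, and a block on the mouse number, were chosen after seeing the data.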

Additional observations from a re-analysis of the deposited data

Results flagged for a closer look

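In wild-type livers *Acta2* had its lowest value, 0.346 FPKM in W157, so far below the others that the gap to the next liver took up 0.634 of the whole range of the 9 livers. *Tagln* was likewise lowest in W157, at 3.0 FPKM, with a gap of 0.526 of the range. These were 2 of 20 sets of 9 livers screened (10 genes in each genotype), and chance alone marks about 1 set in 20. Both came from the same liver, in genes that varied together (r = 0.92), so the 2 sets are not independent and cannot be set against that rate. The cause was not tested. W157 was not low for *Gpr180* (7.29 FPKM, the wild-type median) or for the summed hepatocyte markers (20803 FPKM, above 7 of the other wild-type livers).

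The *Hand2* difference between the genotypes differed between the title series by -1.06 on the log2 scale (series 2 minus series 1, limma interaction, unadjusted p = 0.000787, adjusted p = 0.581). *Reln* and *Pdgfra* also had an unadjusted interaction p under 0.05, so that 3 of the 10 genes did, beside 833 of the 10835 genes tested. By limma 0 of all genes had an adjusted interaction p under 0.05.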

How the results depend on the processing

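*Pdgfrb* was called in all alternatives that tested it except series 2 alone, and a minimum of 5 FPKM left it out. *Pdgfra* lost its call in 15 and *Vim* in 16 of the alternatives, with adjusted p up to 0.271 and 0.259, and *Lrat*, *Des*, *Hand2* and *Ngfr* were called in none. Of the 10 genes, 1 was called with 75th percentile or median-of-ratios scaling (*Pdgfrb*), and 1 of the 3 that a minimum of 5 FPKM left (*Vim*). It was 5 with weights per library, with a block for the series and with median-of-ratios scaling without W157, and in series 2 alone 0. Leaving out 1 library gave 1 to 5: 5 without W157, and 1 without W317, W318, W320, W131, W133, W134, KO52, KO53, KO54 or KO56. The share of all genes called lower moved as well. It was 4.28% in the main fit, 9.52% with the series as a block, 7.77% without W157, 1.55% with median-of-ratios scaling and 0.00932% in series 2 alone. For the weights, 75th percentile scaling, the minimum of 5 FPKM and most single libraries it is not given here. Counts without that share are no result about these genes. Of the listed genes, 25 were called, 16 with 75th percentile or median-of-ratios scaling, 10 with a minimum of 5, 0 in series 2 alone, and 11 to 34 with 1 library left out. The exact permutation test had 8 genes at an unadjusted p under 0.05, and 5 with median-of-ratios or 75th percentile scaling, 4 in series 1 and 5 in series 2. For these scalings and series the share of all genes is not given here. The sign turned for *Des*, to 0.00796 with 75th percentile scaling, 0.0375 with median-of-ratios scaling (with or without the series as a block) and 0.0286 with W157 also left out, and for *Hand2*, to 0.18 in series 1. The balance of activation and identity genes stayed between -0.64 and -0.33 with 1 library left out. The cause of these changes was not tested. The labels give no replicate numbers, but W319 and KO319, and W320 and KO320, share a mouse number. Their deviations from the means of genotype and series had r = -0.0776 and -0.162 across genes. They were taken to share only a number, which 2 pairs of mice cannot establish. With the mouse number as a replicate block, added after seeing the data, 3 of the 10 genes were called, and the share of all genes is not given here. The tables hold no counts, so the precision of single FPKM values is unknown.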
